A study of Mus musculus with 4 samples.

Results

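RAW 264.7 cells that carry a control vector were compared without and with 72 h of RANKL and M-CSF, gene by gene, on 1 Affymetrix Mouse Gene 1.0 ST array for each state. The states are separate cultures, and before and after stimulation below mean the unstimulated and the stimulated array. RANKL, M-CSF and the 72 h of culture with them cannot be told apart. The 2 arrays are those of 4 whose descriptions give the control vector. The other 2 are from cells with a miR-155 expressing vector, without and with the same cytokines. Each gene is represented by its probe set of highest mean, among probe sets with 1 gene symbol, and the measure is the deposited log2 value on the stimulated array minus that on the unstimulated array. The comparison covers 13542 of 19938 genes, those with a value above 4.25 on at least 1 of the 4 arrays. That floor is the 95th percentile over the probe sets of olfactory and vomeronasal receptors, taken as probe sets of little signal. The series text gives 20 ng/ml without saying whether it applies to each cytokine, and it calls the control cells wild-type. The cells are a mouse leukaemia-virus-transformed macrophage-like line, so they divide without added M-CSF and model osteoclast formation only in part.

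RANKL, a TNF-family cytokine, acts through its receptor RANK to turn macrophage-lineage precursors into osteoclasts, the multinucleated cells that dissolve bone. M-CSF keeps such precursors alive and lets them multiply. As osteoclasts form, precursors are known to leave the cell cycle, fuse, take on a resorbing membrane and give up parts of the macrophage repertoire for pathogens and debris. The comparison shows which genes differ between the cultures, and most of what follows concerns genes other than the well-known osteoclast markers.

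Because each state has 1 array, no difference here has a replicate check, and this number of arrays sets the precision. The receptor probe sets give a rough scale: the 2 control arrays lay within 0.48 (log2) of each other for 95% of 1206 of them, and 3 differed by 2-fold or more. They are dim and are no replicate error. A gene is called higher or lower below when its values differ by 2-fold or more, a log2 difference of at least 1. A number in parentheses after a gene is that difference, stimulated minus unstimulated, in the control-vector cells. A fold written as at least so many sets the brighter value against the floor, because the dimmer value did not exceed it.

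Of the 13542 genes, 777 were higher (5.74%) and 939 were lower (6.93%), in all 12.7%. Counts of called list members below are to be read against these shares. The median difference was -0.02, the 5th and 95th percentiles were -1.20 and 1.09, and 65.8% of genes lay within the 0.48 of the receptor probe sets. Past 4-fold, 222 genes were higher (1.64%) and 235 were lower (1.74%). The split moves with the scaling: 45.3% of the called genes were higher on the deposited values. After each array was centred on a median (median centring below), 57.2% were higher (996 higher, 746 lower). The median difference then moved to 0.12. Medians over all probe sets, 4.62 unstimulated and 4.58 stimulated, lie closer together than this move. The centring therefore used medians over other values. Of the higher genes 60 were at or below the floor on the unstimulated array, and of the lower genes 47 were at or below it on the stimulated array. Known osteoclast genes were a small share of these: 31 of 41 listed markers were among the 777 higher genes and 1, Pstpip2 (-1.02), among the lower. Of the called genes, 596 higher and 629 lower ones belong to none of the 52 gene lists compiled for the comparison. The lists were compiled with earlier results of these data known, so their counts describe the arrays and are no independent test.

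**Figure D1:**
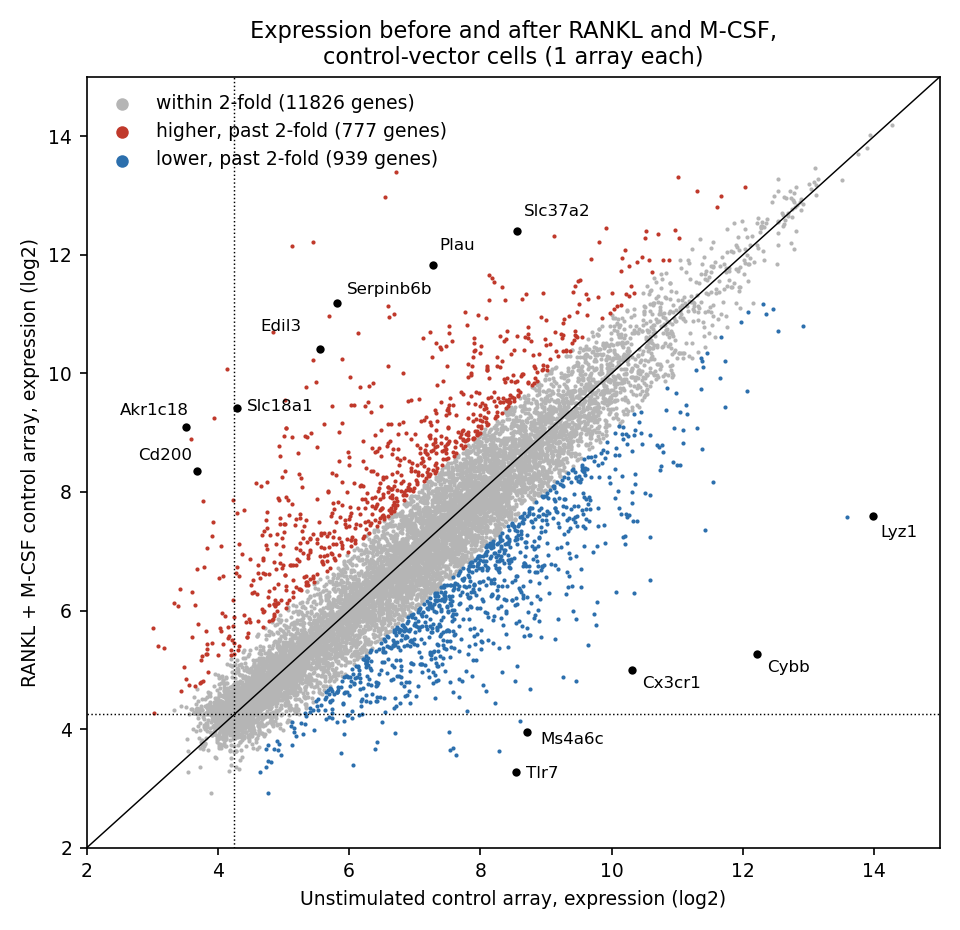
Log2 expression of 13542 genes on the unstimulated control array (horizontal) and the RANKL + M-CSF control array (vertical), 1 point a gene, with equal values on the solid diagonal and the floor of 4.25 dotted. The 777 higher genes lie above the diagonal band and the 939 lower genes under it; Lyz1 and Cybb lie farthest below among the named points, and Akr1c18, Cd200, Tlr7 and Ms4a6c start or end below the floor.

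The arrays carry the labelled cell type. Lyz2, the macrophage lysozyme, read 13.59 unstimulated and 7.58 stimulated, Cd14, the endotoxin co-receptor, 10.59 unstimulated and 6.52 stimulated, and Adgre1, which encodes F4/80, 9.26 unstimulated and 4.88 stimulated. All 3 were far above the floor before stimulation and lower after it, whereas the osteoclast markers Ctsk (6.68) and Acp5 (6.43) were higher. The stimulated control array stands apart from the other arrays: its correlations with them across genes were 0.908 to 0.937 (0.916 with the unstimulated control array), against 0.982 to 0.989 among the 3 other arrays. Array medians over all probe sets lay between 4.58 and 4.62.

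The lower genes were led in number by the cell division machinery. All 57 members of the G2/M and mitosis list above the floor were lower, against 6.93% of all genes, with a median difference of -2.21 and a range of -3.07 to -1.26. Kif11, the motor that pushes spindle poles apart, read 8.89 unstimulated and 5.82 stimulated, which is 8.38-fold lower. Mki67, the proliferation antigen, read 10.21 unstimulated and 7.26 stimulated. Mad2l1, a spindle checkpoint protein, read 10.17 unstimulated and 7.25 stimulated. Each of these 3 genes was bright on the unstimulated array and remained above the floor after stimulation. The scaffold protein of the cleavage furrow Anln (-2.98), the condensin subunits Smc2 (-2.94) and Ncapg (-2.74), the kinetochore protein Nuf2 (-2.88), cyclin A2 (Ccna2, -2.82) and Aurora kinase B (Aurkb, -2.67) were also lower. Fewer dividing cells and less of these RNAs in each cell cannot be told apart in RNA from whole cultures. In the miR-155 cells the same list had a median of -0.06, with 0 of 57 members higher or lower; the difference between the vectors was not tested.

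Promoters of this list often hold the cell cycle homology region (CHR), an element of promoters of mitotic genes. Windows from 250 bases before to 50 after each RefSeq start (GRCm38.p6) were searched on both strands for the words TTTGAA and TTCGAA. Of 48 list members with a window, 39 held a match (81.2%), against 15.3% of 9342 genes within 2-fold and 19.2% of all 32851 promoter windows. In members with 1 start the median match began 2 bases after the start site. The windows below, from 120 bases before the start to 10 after it, belong to the 4 members with the largest differences that have 1 start and a match in this stretch. They show where the words lie. Each is written 5′ to 3′ on the gene's strand with the CHR words in capitals.
Kif11 chr19:37376262-37376391 (plus strand): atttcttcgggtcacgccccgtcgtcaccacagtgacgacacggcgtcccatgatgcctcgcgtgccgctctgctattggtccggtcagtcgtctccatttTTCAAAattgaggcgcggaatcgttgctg
Mki67 chr7:135716370-135716499 (minus strand): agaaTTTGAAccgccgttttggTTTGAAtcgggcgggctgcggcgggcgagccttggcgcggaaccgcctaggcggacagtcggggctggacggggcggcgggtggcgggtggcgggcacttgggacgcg
Ncapg chr5:45669805-45669934 (plus strand): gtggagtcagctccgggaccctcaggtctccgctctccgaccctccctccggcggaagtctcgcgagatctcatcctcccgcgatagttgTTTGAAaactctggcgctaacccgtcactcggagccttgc
Top2a chr11:99024180-99024309 (minus strand): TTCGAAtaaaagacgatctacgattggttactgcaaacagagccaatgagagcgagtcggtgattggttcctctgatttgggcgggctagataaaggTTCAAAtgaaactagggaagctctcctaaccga

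In Kif11 the match is the reverse complement of the word and begins 19 bases before the start. Mki67 and Top2a (-2.65), which encodes the topoisomerase that untangles chromosomes, hold 2 matches each. Ncapg holds 1, beginning 30 bases before the start. A match is a description of the letters, and binding was not measured.

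Genes of S phase entry and DNA replication were lower too. In this list 48 of 61 members were lower and 0 were higher, with a median of -1.54. Asf1b, a histone chaperone that loads new nucleosomes, read 10.20 unstimulated and 7.13 stimulated. Prim1, the primase subunit that starts each DNA strand, read 7.88 unstimulated and 5.17 stimulated, and Mcm3, a subunit of the replicative helicase, 10.14 unstimulated and 7.63 stimulated. These 3 genes were 8.39-fold, 6.56-fold and 5.66-fold lower. All but 1 member had a negative difference; the exception was Cdt1 (0.39), which licenses origins and is controlled largely by destruction of its protein. Cdk2 (-0.29) and Orc2 (-0.43) stayed within the 0.48 of the receptor probe sets.

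E2F factors are known to drive this set, and their site was searched on both strands as the word TTGGCGC, the word TTCGCGC, the word TTCCCGC or the word TTGCCGC. Of 51 replication list members with a window, 31 held a match (60.8%), against 17.5% of genes within 2-fold and 9.57% of all promoter windows. Below are the windows of the 4 members of largest difference with 1 start and a match, written as before with the E2F words in capitals.
Prim1 chr10:128015095-128015224 (plus strand): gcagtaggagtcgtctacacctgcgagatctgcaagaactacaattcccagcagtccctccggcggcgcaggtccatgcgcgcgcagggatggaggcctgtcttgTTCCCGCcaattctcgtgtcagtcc
E2f8 chr7:48881587-48881716 (minus strand): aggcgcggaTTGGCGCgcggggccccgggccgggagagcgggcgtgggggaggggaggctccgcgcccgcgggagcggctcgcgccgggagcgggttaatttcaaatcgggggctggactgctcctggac
Mcm6 chr1:128359696-128359825 (minus strand): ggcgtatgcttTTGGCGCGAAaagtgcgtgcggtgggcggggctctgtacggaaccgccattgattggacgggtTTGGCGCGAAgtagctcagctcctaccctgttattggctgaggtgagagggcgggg
Rrm1 chr7:102441575-102441704 (plus strand): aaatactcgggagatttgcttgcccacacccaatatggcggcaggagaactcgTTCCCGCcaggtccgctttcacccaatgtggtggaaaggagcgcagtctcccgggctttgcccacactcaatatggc

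Mcm6 (-2.05) holds 4 matches in 2 overlapping pairs, each a word on 1 strand that shares letters with a word on the other. E2f8 (-2.59) is itself a repressor of the E2F family, and Rrm1 (-1.96) is the large subunit of the enzyme that makes deoxyribonucleotides. The 2 kinds of word divided along the lists: E2F words were in 11 of 48 mitosis promoters, and CHR words in 12 of 51 replication promoters. The CCAAT box was common to both, in 35 of 48 and 30 of 51, against 41.2% of genes within 2-fold.

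Lists tied to growth and genome upkeep followed at smaller size. Of 54 DNA repair and checkpoint genes, 25 were lower and 2, Xrcc5 and Ercc6, were higher (median -0.94), and 25 of 46 with a promoter window held an E2F word. Chek1, the kinase that holds the cell cycle when replication stalls, read 7.77 unstimulated and 4.99 stimulated (-2.79), followed by the helicases Brip1 (-2.48) and Blm (-2.23). Of 32 genes of purine and pyrimidine synthesis, 12 were lower and 0 higher (median -0.71). The deepest were the ribonucleotide reductase subunit Rrm2 (-2.49) and the salvage kinases Dck (-2.44) and Tk1 (-2.16). Hprt, a salvage enzyme often taken as a constant reference gene, read 10.34 unstimulated and 9.31 stimulated (-1.03). In the list of ribosome biogenesis and the nucleolus 8 of 55 members were lower and 0 higher, with a median of -0.36 (5 lower after median centring). The deepest were the processing factors Rrp1b (-1.48) and Utp20 (-1.41) and Dkc1 (-1.41), which modifies ribosomal RNA.

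Of 37 cyclins, CDKs and CDK inhibitors outside mitosis, 5 were lower and 3 higher, where 6.93% and 5.74% of all genes were. Cyclin D1 (Ccnd1), the growth-factor-driven G1 cyclin, read 10.93 unstimulated and 8.50 stimulated (-2.44), and the retinoblastoma family members Rbl1 (-2.47) and Rb1 (-1.27) were lower. Ccny (1.47), Cdk18 (1.26) and the inhibitor p27, encoded by Cdkn1b (1.05), were higher. Of 60 Polycomb, DNA methylation and histone-modifying enzymes, 6 were lower and 2 higher, against 6.93% and 5.74% of all genes. The other 52 lay within 2-fold, and the median was -0.27. The lower ones include the heterochromatin protein Cbx5 (-2.38), Uhrf1 (-2.14) and Dnmt1 (-1.37), which copy DNA methylation after replication, and Ezh2 (-1.68), the Polycomb methyltransferase. Kdm5b, which removes the active mark H3K4 methylation, was 1 of the 2 higher members: it read 4.22 unstimulated and 7.87 stimulated, at least 12.3-fold higher. The BCL2 and caspase list had 2 of 36 members higher and 2 lower, near the shares of all genes, including Casp4 (1.17) and Casp2 (-1.36).

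**Figure D2:**
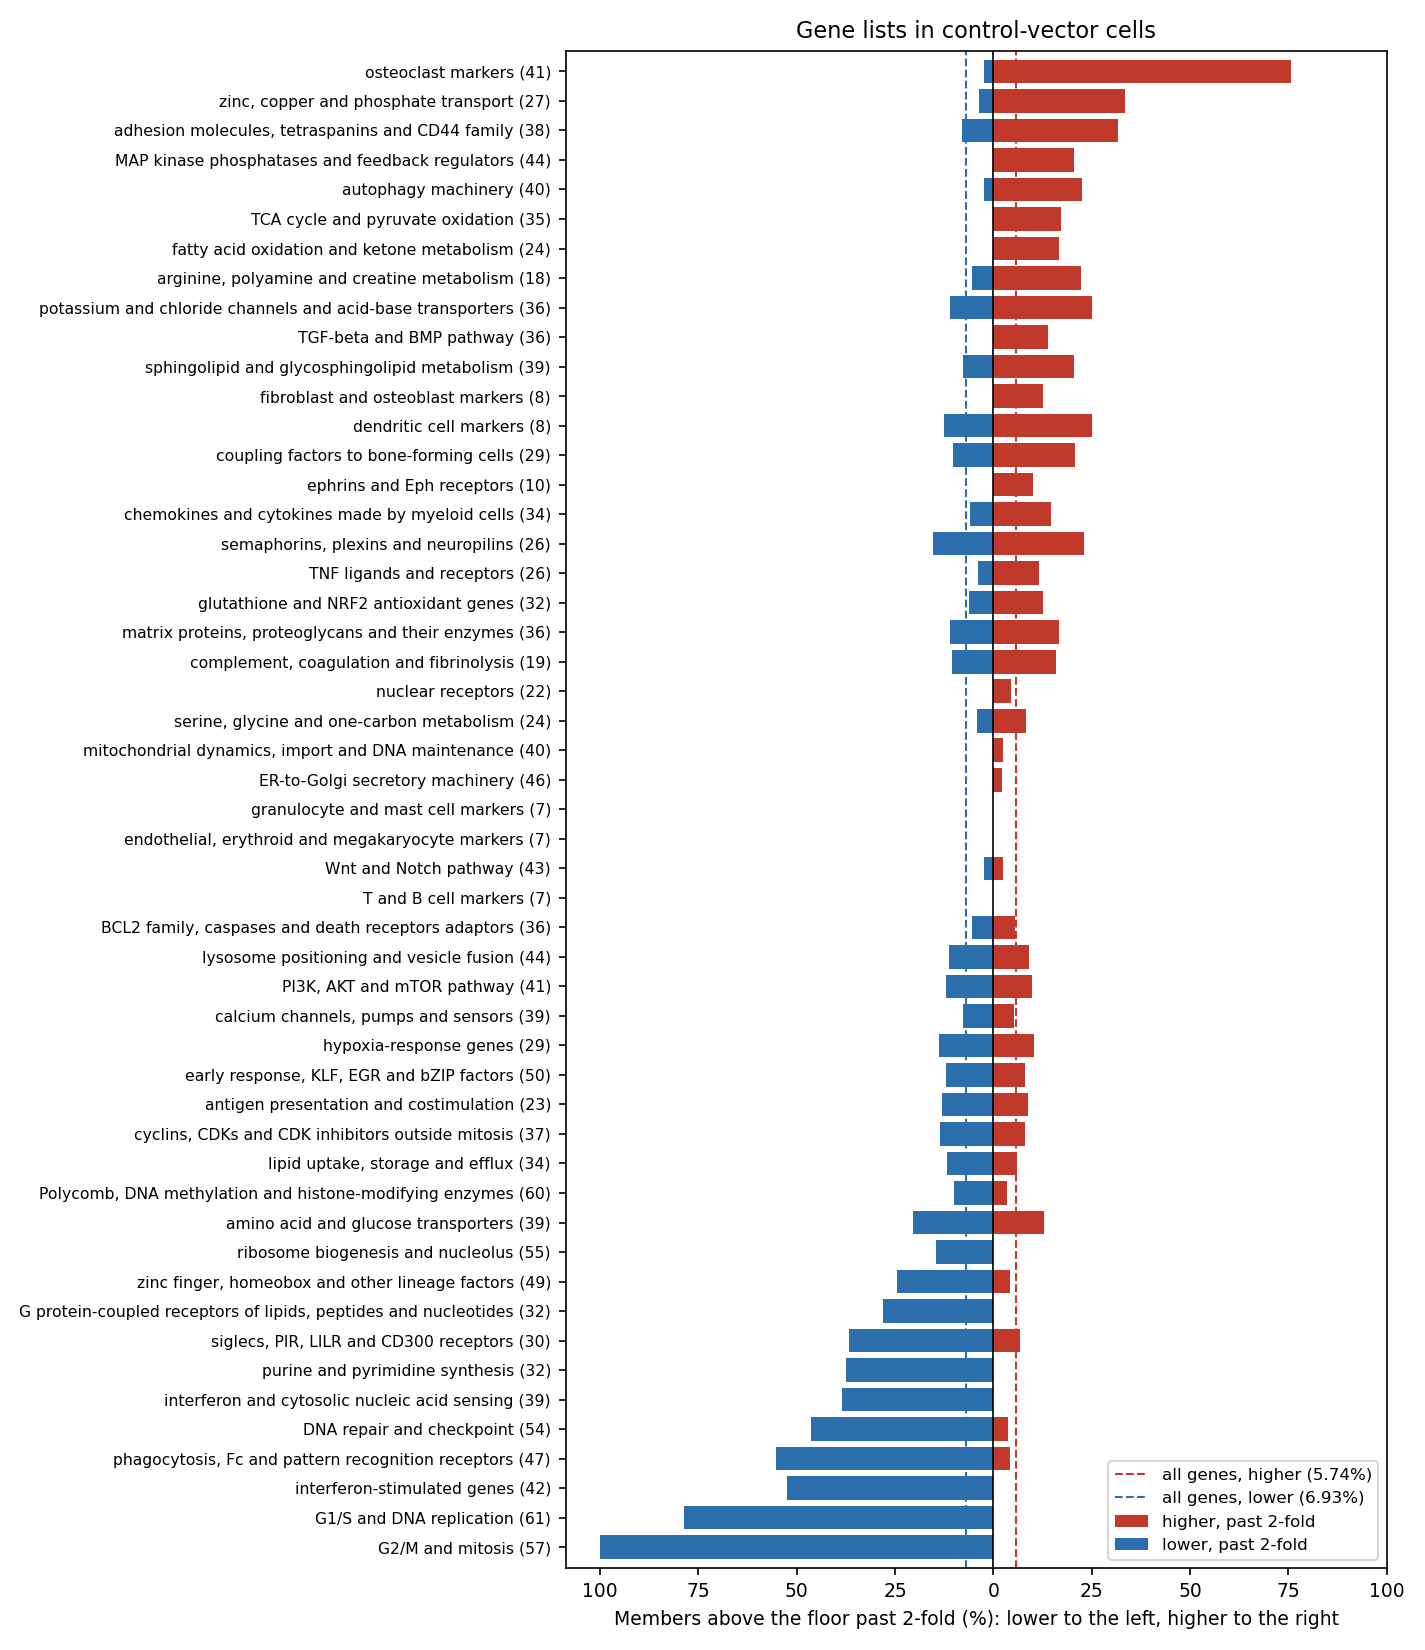
Share of the members above the floor that were higher (right, red) or lower (left, blue) past 2-fold in each of 51 lists, with the number of members in parentheses and dashed lines at 5.74% and 6.93%, the shares of all genes. All 57 mitosis genes extend to the left and 31 of 41 osteoclast markers to the right, while lists such as the ER-to-Golgi machinery (1 of 46) have almost no called members.

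Outside the osteoclast list, the 40 genes with the largest positive differences ranged from 3.28 to 5.58. Akr1c18, an enzyme that inactivates progesterone, was at the head: it read 3.51 unstimulated and 9.09 stimulated, at least 28.6-fold higher. Its values in the miR-155 cells were 3.42 and 3.84, both below the floor. The next, Serpinb6b, an intracellular inhibitor of serine proteases, read 5.81 unstimulated and 11.19 stimulated (41.7-fold higher). Ccr1, a receptor for the chemokines Ccl3, Ccl5 and Ccl9, read 3.59 unstimulated and 8.89 stimulated, at least 24.9-fold higher. Slc18a1, the transporter that loads monoamines into vesicles, read 4.29 unstimulated and 9.41 stimulated (34.9-fold higher). Of the 40, 7 were at or below the floor before stimulation. In the miR-155 cells 32 of them were also higher past 2-fold, with a median of 1.65. The others are 8 genes, including Akr1c18 (0.42 in miR-155 cells), Cd200 (0.67), Mt3 (0.55) and Slc45a3 (0.36).

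**Figure D3:**
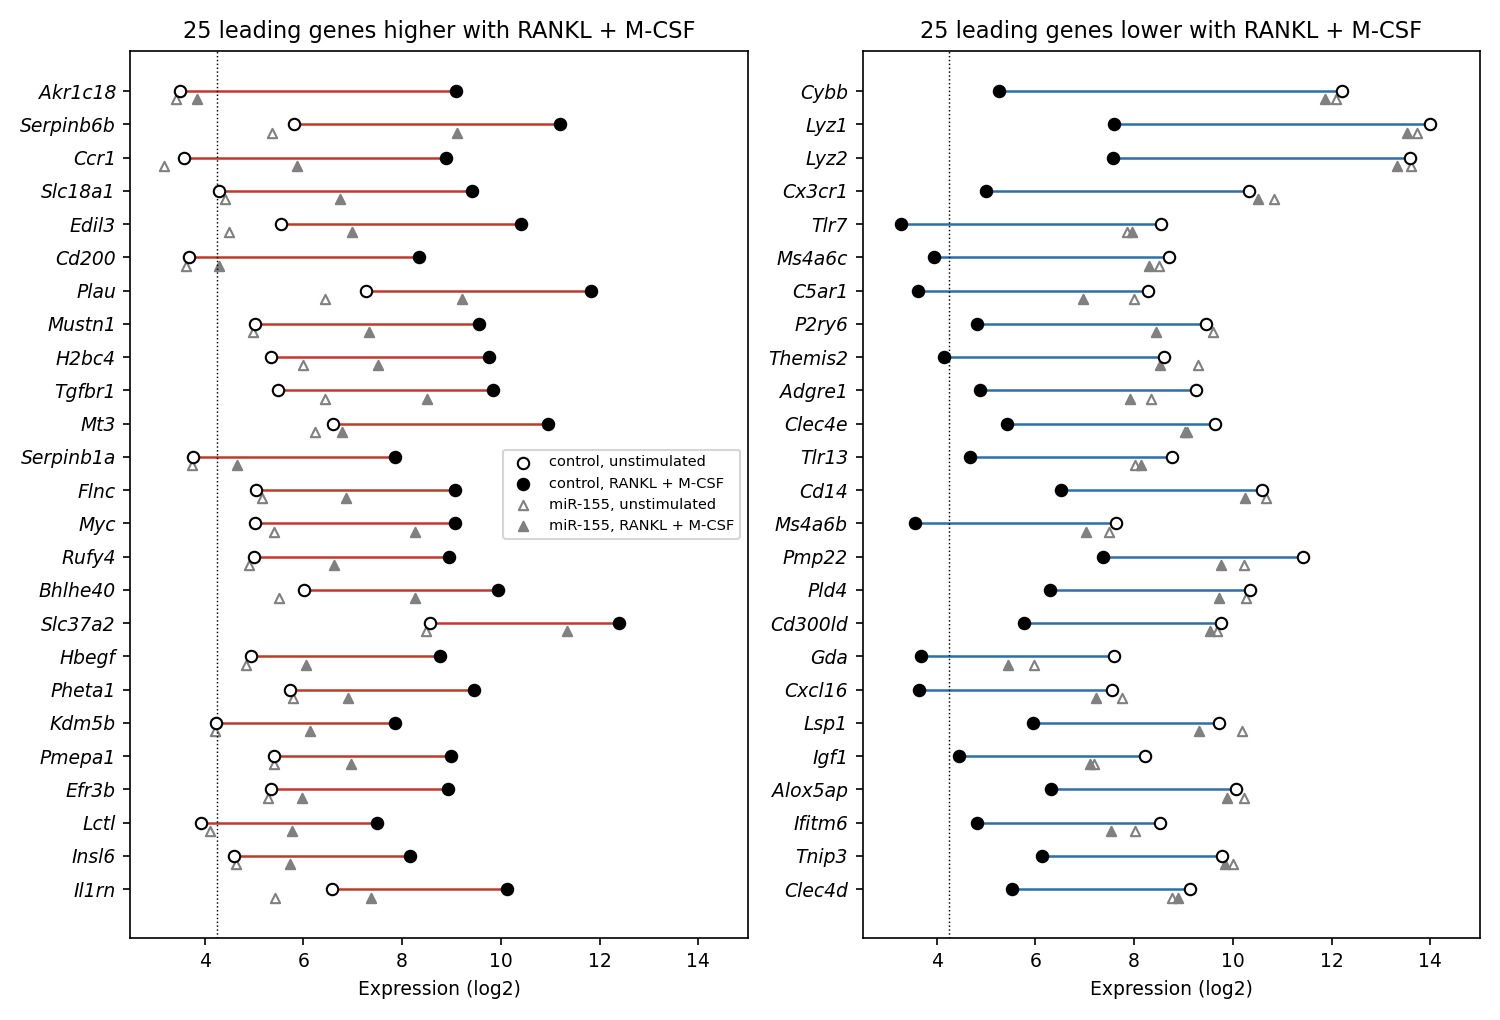
Log2 expression on each of the 4 arrays for the 25 genes with the largest positive (left) and negative (right) differences outside the osteoclast list; circles are control-vector arrays, joined by a line, triangles are miR-155 arrays, open symbols are unstimulated and the dotted line is the floor of 4.25. Most higher genes have a shorter step of the same sign between the triangles, whereas the triangles of the lower genes lie closer together, with differences from -1.15 (P2ry6) to 0.12 (Clec4d).

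Transcription factors and receptors at the cell surface stood among these leaders. Myc, the growth-promoting transcription factor, read 5.03 unstimulated and 9.07 stimulated (4.04), opposite in sign to the medians of the replication and ribosome biogenesis lists. Bhlhe40, a basic helix-loop-helix repressor, read 6.01 unstimulated and 9.94 stimulated (3.93), while its paralog Bhlhe41 read 7.47 unstimulated and 4.98 stimulated (-2.48). The 2 paralogs therefore had opposite signs. Cd200, a surface ligand for an inhibitory receptor of myeloid cells, read 3.69 unstimulated and 8.35 stimulated, at least 17.1-fold higher.

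In the TGF-beta and BMP list, 5 of 36 members were higher and 0 lower. Tgfbr1, the type I TGF-beta receptor, read 5.49 unstimulated and 9.85 stimulated (20.6-fold higher). Ltbp1, which stores latent TGF-beta in the matrix, read 4.39 unstimulated and 7.70 stimulated. The feedback inhibitor of the pathway Smad7 (1.14), the ubiquitin ligase Smurf1 (1.47) and Id2 (1.04) were also higher, as was Pmepa1 (3.58), another feedback inhibitor, outside the list. The remaining 31 members lay within 2-fold.

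Signals that pass from osteoclasts to bone-forming cells are of interest because resorption and formation are linked in bone. In the list of such coupling factors, 6 of 29 members were higher and 3 lower (10 higher after median centring). Pdgfb, the growth factor subunit of PDGF-BB, read 7.47 unstimulated and 10.46 stimulated (7.97-fold higher). Lif, a cytokine of the interleukin 6 family, read 4.01 unstimulated and 6.55 stimulated, at least 4.91-fold higher. The endothelial growth factor Vegfc (2.26), the sphingosine kinase Sphk1 (1.59), the Notch ligand Jag1 (1.55) and Sema4d (1.42) were the other higher members. On the other side, Cxcl16, a membrane-bound chemokine, read 7.54 unstimulated and 3.65 stimulated, at least 9.79-fold lower. Igf1, the insulin-like growth factor, read 8.22 unstimulated and 4.44 stimulated (13.7-fold lower). The third, S1pr1, is the receptor for the product of Sphk1 (-1.74). The list as a whole had a median of 0.13, or 0.48 with a stricter floor of 5.17.

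Guidance molecules, named for axon growth but also active in bone, split in both directions. Of 26 semaphorins, plexins and neuropilins, 6 were higher and 4 lower. Plxnd1, a semaphorin receptor, read 7.79 unstimulated and 10.81 stimulated (3.02), and Sema7a read 4.74 unstimulated and 7.53 stimulated (2.79). Plxnc1, a receptor for Sema7a, read 6.54 unstimulated and 4.29 stimulated (-2.25), opposite in sign to its ligand. Nrp1, a co-receptor for semaphorins and VEGF, was at least 3.75-fold lower. Of 10 ephrins and Eph receptors above the floor 1 was higher, Efna1 (1.11), and 10 others were below the floor. The Wnt and Notch list had Jag1 higher and the Notch effector Rbpj lower (-1.49), with 41 of 43 members within 2-fold.

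In the TNF family outside the osteoclast markers, 3 of 26 members were higher and 1 lower, where 5.74% and 6.93% of all genes were. The list median was -0.11. Tnfrsf9, the receptor 4-1BB, read 4.99 unstimulated and 7.09 stimulated (2.09), and its ligand Tnfsf9 read 7.52 unstimulated and 3.96 stimulated, at least 9.65-fold lower. Receptor and ligand thus had opposite signs. Of 34 chemokines and cytokines, 5 were higher and 2 lower. Il1rn, the natural antagonist of the interleukin 1 receptor, read 6.59 unstimulated and 10.12 stimulated (11.5-fold higher), and Ccl9, a chemokine of myeloid cells, 10.20 unstimulated and 12.07 stimulated. Ccl5 (1.58) and Ccl3 (1.12), both ligands of Ccr1, were higher as well, and the interferon-induced Cxcl10 (-1.81) was lower. Hbegf, a membrane-anchored ligand of the EGF receptor, read 4.94 unstimulated and 8.78 stimulated (14.3-fold higher).

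Some brakes on signalling inside the cell were higher. Of 44 MAP kinase phosphatases and feedback regulators, 9 were higher and 0 lower, with a median of 0.38. Rgs16, which shortens G protein signals, read 5.84 unstimulated and 9.01 stimulated (9-fold higher). Tnfaip3, the NF-kappaB inhibitor A20, read 6.48 unstimulated and 9.04 stimulated (5.89-fold higher). Dusp1, a phosphatase of the stress-activated MAP kinases, read 7.88 unstimulated and 10.13 stimulated (4.76-fold higher), whereas in the miR-155 cells it read 7.94 and 7.18. Rgs1 (2.44), Dusp4 (2.40), Spry1 (1.89) and the I-kappaB gene Nfkbia (1.72) followed. Of 50 early response and KLF factors 4 were higher and 6 lower, close to the shares of all genes (5.74% and 6.93%). Egr1 (1.61) and Egr2 (1.37) were higher, and Atf3 (-2.74), a stress-induced repressor, Klf4 (-1.55), Klf7 (-1.40) and Cebpa (-1.38) were lower.

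In the PI3K pathway 4 of 41 members were higher and 5 lower (2 lower after median centring), where 5.74% and 6.93% of all genes were. The catalytic subunits took different directions. Pik3cb, the p110 beta subunit, read 7.90 unstimulated and 10.37 stimulated (2.47). Pik3cg, the p110 gamma subunit used by G protein-coupled receptors, read 9.03 unstimulated and 6.94 stimulated (-2.09), and Pik3cd was at -1.01. The gamma adaptor Pik3r6 was lower with it (-1.44). Flnc, an actin cross-linker best known in muscle (4.04), and Nckap1 (3.33), part of the WAVE complex for actin branching, were among the 40 leading higher genes.

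Adhesion molecules were one of the lists with the most higher members, 12 of 38, with 3 lower. Itgb3 and Itgav, the 2 chains of the vitronectin receptor, read 5.32 unstimulated and 8.94 stimulated and 8.13 unstimulated and 11.66 stimulated respectively. Both are also osteoclast markers. Beyond them, Itgax (2.59), Itgb7 (2.54), Itga6 (2.49) and Itga5 (1.31) were higher, whereas Itgam, the alpha chain of the complement receptor CR3, read 9.61 unstimulated and 7.55 stimulated (-2.06). L1cam (-2.01) and Itga4 (-1.73) were lower too. Edil3, a secreted protein that binds the vitronectin receptor, read 5.55 unstimulated and 10.42 stimulated (29.2-fold higher). Among 36 matrix genes 6 were higher and 4 lower. Ext1, which builds heparan sulfate chains (3.23), the metalloproteinase inhibitor Timp2 (2.12) and the proteoglycan Sdc1 (1.55) were higher, and Sdc3 (-2.99) and the sheddase Adam17 (-2.54) were lower. Plau, the urokinase that activates plasmin, read 7.27 unstimulated and 11.83 stimulated (23.5-fold higher). With it Cd59a, which blocks the membrane attack complex (3.46), and the coagulation initiator F3 (1.39) made up the 3 higher members of the complement and coagulation list, in which C5ar1 and F10 were the 2 lower ones of 19.

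Of 36 potassium and chloride channels and acid-base transporters, 9 were higher and 4 lower. The 2 largest differences, Slc9b2 (4.78) and carbonic anhydrase 2 (Car2, 4.54), belong to osteoclast markers. Clcn7, the chloride-proton exchanger of acid secretion (3.43), is an osteoclast marker as well. The 9 higher members thus overlap the osteoclast list. Other known parts of acid secretion were higher, such as the Clcn7 partner Ostm1 (1.75) and the basolateral anion exchanger Slc4a2 (3.28). Slc4a8, a sodium-driven bicarbonate exchanger, read 5.17 unstimulated and 7.44 stimulated (2.27), and the miR-155 cells differed by 0.25. Slc9a9, an endosomal sodium-proton exchanger, was at least 3.19-fold lower, and the potassium channels Kcnj2 (-1.36) and Kcnk13 (-1.27) were lower. Calcium channels, pumps and sensors had 2 of 39 members higher (5 after median centring) and 3 lower, near the shares of all genes (5.74% and 6.93%). The largest differences were those of the calmodulin kinase Camk2d (1.96) and the lysosomal channel Mcoln2 (-1.90).

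Of 27 transporters of zinc, copper and phosphate, 9 were higher and 1 lower, with a median of 0.41. Mt3, a zinc-binding metallothionein, read 6.61 unstimulated and 10.95 stimulated (20.4-fold higher). Xpr1, the phosphate exporter, read 8.13 unstimulated and 11.24 stimulated (8.64-fold higher), and Ank, which moves ATP and thereby pyrophosphate out of cells, 11.01 unstimulated and 13.32 stimulated (2.31). Phosphate is what dissolving bone mineral sets free, but a link to these values was not tested. The zinc transporters Slc39a13 (1.98) and Slc39a1 (1.62) and the copper transporters Slc31a1 (1.18) and Slc31a2 (1.56), were higher, and Slc39a6 (-1.57) was the lower member.

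Amino acid and glucose transporters had 5 of 39 members higher and 8 lower. Slc37a2, a sugar-phosphate exchanger of internal membranes, read 8.56 unstimulated and 12.40 stimulated (14.4-fold higher). Slc6a8, the creatine importer, read 7.32 unstimulated and 10.51 stimulated (9.17-fold higher). The monocarboxylate transporter Slc16a7 (2.66) and Slc38a6 (2.46) were higher too. Slc2a6, a glucose transporter of macrophages, read 9.18 unstimulated and 5.86 stimulated (10-fold lower), and Slc7a5, the main importer of large neutral amino acids, 11.05 unstimulated and 9.35 stimulated (-1.70). The creatine importer was joined by the creatine kinases Ckb (2.55, also an osteoclast marker) and Ckmt1 (2.51), the mitochondrial one, but not by the muscle form Ckm (0.09), while Gatm (-2.69), which carries out the first step of creatine synthesis, was lower. Gamt, which carries out the step after it, was within 2-fold (-0.38). In the whole list of arginine, polyamine and creatine metabolism 4 of 18 were higher and 1 lower.

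Genes of energy metabolism had modest positive differences. The TCA cycle and pyruvate oxidation list had a median of 0.64, with 29 of 35 members above 0 and 6 higher. The largest were Pdk3 (1.23) and Pdk2 (1.21), kinases that switch pyruvate dehydrogenase off rather than enzymes of the cycle. The succinate dehydrogenase subunit Sdhb read 9.18 unstimulated and 10.29 stimulated (1.11), and Cs, citrate synthase, 10.68 unstimulated and 11.54 stimulated (0.86). Below 0 were Pdp1 (-0.93), the phosphatase that switches pyruvate dehydrogenase on, and the NADP-dependent isocitrate dehydrogenases Idh1 (-0.88) and Idh2 (-0.37), among 6 members. In fatty acid oxidation and ketone metabolism 4 of 24 were higher and 0 lower (median 0.42), led by the ketone enzyme Bdh1, which read 6.48 unstimulated and 9.45 stimulated (7.83-fold higher), and the thiolase Acaa2 (2.35). Mitochondrial dynamics and import genes had 1 higher member of 40 (5 after median centring), the coactivator Ppargc1b (1.59). The glutathione and antioxidant list had 4 of 32 higher, led by Gstt1 (2.31), and 2 lower, the regulator Nfe2l2 (-1.34) and Gsr (-1.17). The hypoxia list had 3 of 29 higher and 4 lower, Bhlhe40 and Bhlhe41 being the largest on each side. One-carbon metabolism had 2 of 24 higher, led by Cth (1.99), and 1 lower, Tyms (-1.20). Of all genes, 5.74% were higher and 6.93% lower.

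Of 39 sphingolipid and glycosphingolipid genes, 8 were higher and 3 lower. Acid sphingomyelinase, the lysosomal enzyme Smpd1, read 7.52 unstimulated and 10.68 stimulated (8.9-fold higher). Glb1 (2.63), Hexa (1.35) and Arsa (1.05), also lysosomal hydrolases, the activator Gm2a (1.59) and the sphingomyelin synthase Sgms2 (2.44) were higher. Smpdl3b, a sphingomyelinase-like protein at the cell surface, read 9.41 unstimulated and 5.99 stimulated (10.7-fold lower). Of 34 genes of lipid uptake, storage and efflux, 2 were higher and 4 lower, against 5.74% and 6.93% of all genes. The lower ones included the scavenger receptor Cd36, which read 11.55 unstimulated and 8.17 stimulated (10.4-fold lower), the RNA-editing enzyme Apobec1 (-2.22) and Msr1 (-1.73). Autophagy genes leaned upward: 9 of 40 were higher and 1 lower (0 after median centring), with a median of 0.38. Map1lc3a, an LC3 protein of autophagosome membranes, read 5.28 unstimulated and 7.33 stimulated (2.06), followed by Gabarapl2 (1.60) and the cargo receptor Nbr1 (1.40). Of 44 genes of lysosome positioning and vesicle fusion, 4 were higher and 5 lower, where 5.74% and 6.93% of all genes were. Snx10, a sorting nexin whose loss causes osteopetrosis, read 7.44 unstimulated and 9.86 stimulated (5.39-fold higher), and Rab7b (-1.77) was lower. The ER-to-Golgi machinery had 1 higher member of 46, Creb3l2 (1.78), and nuclear receptors 1 of 22, Nr1d1 (1.36), where 5.74% of all genes were higher.

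AP-1, the Fos and Jun dimer that osteoclast formation depends on, binds TGANTCA. This word, which is the same on both strands, was in a window of 10.7% of 627 higher genes, 4.44% of 765 lower genes and 6.24% of genes within 2-fold, against 7.81% of all promoter windows. Past 4-fold the share of higher genes was 18.6%. Higher genes have 2 or more starts, and so more windows, more often (23.6%, against 18.7% of genes within 2-fold). With genes of 1 start only, the share in the higher genes was 6.89%, against 4.28% of lower genes and 4.90% of genes within 2-fold. The word was not confined to lists with higher medians. It was in 3 of 25 osteoclast markers, 7 of 34 interferon-stimulated genes and 6 of 37 phagocytosis genes. The last 2 lists have negative medians. Among mitosis, replication and repair genes it was in 0 of 48, 1 of 51 and 0 of 46. Below are the windows of the 3 higher genes of largest difference, outside the osteoclast list, with 1 start and a match, shown with the word in capitals.
Rufy4 chr1:74125421-74125550 (plus strand): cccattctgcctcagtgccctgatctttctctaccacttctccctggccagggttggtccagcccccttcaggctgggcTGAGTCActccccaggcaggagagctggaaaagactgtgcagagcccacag
Slc37a2 chr9:37255729-37255858 (minus strand): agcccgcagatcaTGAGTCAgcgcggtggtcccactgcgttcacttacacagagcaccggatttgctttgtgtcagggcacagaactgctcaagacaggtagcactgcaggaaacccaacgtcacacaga
Prnp chr2:131909808-131909937 (plus strand): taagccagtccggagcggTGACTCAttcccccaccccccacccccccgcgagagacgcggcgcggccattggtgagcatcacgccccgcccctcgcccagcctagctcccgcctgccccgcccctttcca

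Rufy4, a protein linked to autophagy and lysosome position, was 15.4-fold higher (3.94). Prnp, the prion protein, read 5.04 unstimulated and 7.92 stimulated (7.39-fold higher), and Slc37a2 is described above.

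Among the lower genes, the phagocyte surface was the most prominent group after the cell cycle. Of 47 phagocytosis, Fc and pattern recognition genes, 26 were lower and 2 higher, with a median of -1.29. Cybb, the catalytic subunit of the phagocyte oxidase, read 12.21 unstimulated and 5.26 stimulated, the largest negative difference of all genes above the floor (-6.95). Lyz1 and Lyz2 are near-identical copies whose probe sets may share signal, and both had differences beyond -6 (-6.39 and -6.02). Cx3cr1, the fractalkine receptor, read 10.32 unstimulated and was 39.8-fold lower after stimulation (-5.32). Tlr7, the endosomal sensor of single-stranded RNA, read 8.55 unstimulated and 3.29 stimulated, at least 19.7-fold lower, and Tlr13, a sensor of bacterial ribosomal RNA, 8.76 unstimulated and 4.68 stimulated. Clec4e and Clec4d, lectins for fungal and mycobacterial glycolipids, were at -4.22 and -3.61. In the miR-155 cells the list median was 0.04, and 0 members were past 2-fold in either direction. Members that stayed within 2-fold in the control cells included the signalling adaptor Fcer1g (-0.16) and the endosomal glycoprotein Cd68 (0.29). The 2 higher members were Itgax and the inhibitory lectin Clec4a2 (1.80).

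Receptors with inhibitory or immune-tuning roles were lower in part. Of 30 siglecs, PIR, LILR and CD300 receptors, 11 were lower and 2 higher (median -0.44, or -0.94 with the stricter floor). Cd300ld read 9.76 unstimulated and 5.76 stimulated (15.9-fold lower), and Cd33, a sialic acid-binding receptor, 8.56 unstimulated and 5.07 stimulated (11.3-fold lower). Its relative Siglec15, a known osteoclast receptor, went the other way and read 6.17 unstimulated and 9.77 stimulated (12.2-fold higher). Of 32 G protein-coupled receptors for lipids, peptides and nucleotides, 9 were lower and 0 higher. C5ar1, the receptor for the complement fragment C5a, read 8.28 unstimulated and 3.63 stimulated, at least 16.4-fold lower. P2ry6, a receptor for UDP, read 9.46 unstimulated and 4.82 stimulated (25-fold lower), and Gpr84, a receptor for medium-chain fatty acids, 9.45 unstimulated and 5.87 stimulated (12-fold lower). The leukotriene receptor Cysltr1 (-2.95) and the proton-sensing Gpr65 (-2.73) came next. In the antigen presentation list 2 of 23 were higher and 3 lower, where 5.74% and 6.93% of all genes were. The higher ones were the costimulatory Cd80 (2.62) and Cd83 (2.58), and the lower ones included the peptide-trimming Erap1 (-2.00).

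Lower interferon genes included both sensors and targets. Of 39 genes of interferon and cytosolic nucleic acid sensing, 15 were lower and 0 higher, with a median of -0.69, and Tlr7 and Tlr13 are its largest differences. Irf8, a myeloid interferon regulatory factor, read 8.54 unstimulated and 6.21 stimulated (-2.33), and Irf7, the main inducer of type I interferon genes, 8.29 unstimulated and 6.72 stimulated (-1.57). The RNA sensors Dhx58 (-1.98), Ddx58 (-1.49, which encodes RIG-I) and Ifih1 (-1.23) were lower together. Of 42 interferon-stimulated genes, 22 were lower and 0 higher (1 higher after median centring), with a median of -1.07. This holds for the compiled list only. Outside it, Ifi202b read 5.62 unstimulated and 9.15 stimulated (11.5-fold higher). Of 10 genes with the symbol stem Ifi, 3 were higher and 2 lower, with a median of 0.06. Lgals9, a galectin, read 8.87 unstimulated and 6.01 stimulated (7.26-fold lower), Usp18, which removes ISG15 from proteins, 7.21 unstimulated and 4.89 stimulated, and Rtp4 8.21 unstimulated and 5.90 stimulated. Some classic targets were dim from the start: Rsad2 read 4.81 unstimulated and 4.63 stimulated, and Mx2 was below the floor on both control arrays. In the miR-155 cells the median of the interferon-stimulated list was -0.34, with 3 members lower.

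The interferon-stimulated response element (ISRE) was searched on both strands as GAAA, any 2 bases and GAAA again. Of 34 interferon-stimulated list members with a window, 15 held a match (44.1%), against 3.25% of genes within 2-fold and 3.44% of all promoter windows. The list is compiled by response to interferon, and 20 of its 42 members above the floor were within 2-fold. Matches were not split between its lower and other members, so the share of the list does not describe lower genes. Over all lower genes the share was 5.49%. The windows of the 3 lower members of largest difference with 1 start and a match follow, with the ISRE word in capitals.
Lgals9 chr11:78984915-78985044 (minus strand): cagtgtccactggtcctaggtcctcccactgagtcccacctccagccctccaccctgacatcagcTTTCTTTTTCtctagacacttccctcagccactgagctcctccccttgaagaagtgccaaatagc
Oas3 chr5:120777650-120777779 (minus strand): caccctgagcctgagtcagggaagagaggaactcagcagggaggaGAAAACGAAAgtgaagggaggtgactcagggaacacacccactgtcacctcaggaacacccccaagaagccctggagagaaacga
Irgm1 chr11:48871411-48871540 (minus strand): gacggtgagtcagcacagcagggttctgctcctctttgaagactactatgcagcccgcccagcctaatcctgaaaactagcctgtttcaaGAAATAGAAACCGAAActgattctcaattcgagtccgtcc

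In Lgals9 the word lies on the opposite strand, beginning 55 bases before the start. Irgm1 holds 2 overlapping matches, capitalised as 1 stretch. Oas3 (-1.33) makes the activator of RNase L, and Irgm1 (-1.04) is an interferon-induced GTPase that acts against intracellular bacteria.

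Transcription factors of the lineage list were lower in 12 of 49 cases and higher in 2. Fli1, an ETS factor of blood cells, read 8.93 unstimulated and 5.56 stimulated (10.3-fold lower). Nfix read 8.28 unstimulated and 5.38 stimulated (-2.90) and Lyl1, a blood-cell helix-loop-helix factor, 8.39 unstimulated and 5.99 stimulated (-2.40). Mef2c (-1.65), Ikzf1 (-1.41) and Lmo2 (-1.23) were lower as well. Gata3, better known from T cells, was the higher one besides Bhlhe40, at 4.69 unstimulated and 6.63 stimulated (1.94). The list median was -0.02, and -0.45 with the stricter floor.

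The 40 genes with the most negative differences ranged from -6.95 to -3.13, and 8 of them were at or below the floor after stimulation. In the miR-155 cells 4 of these 40 were lower past 2-fold (C5ar1, -1.05; P2ry6, -1.15; Igfbp4, -1.25; Them6, -1.24), with a median of -0.43 over the 40. Over all genes, 142 of the 777 higher genes and 12 of the 939 lower genes were past 2-fold in the same direction in the miR-155 cells. There 156 genes were higher (1.15%) and 25 lower (0.185%) in all. The 2 pairs of arrays share no sample, and the difference between the vectors was not tested.

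**Figure D4:**
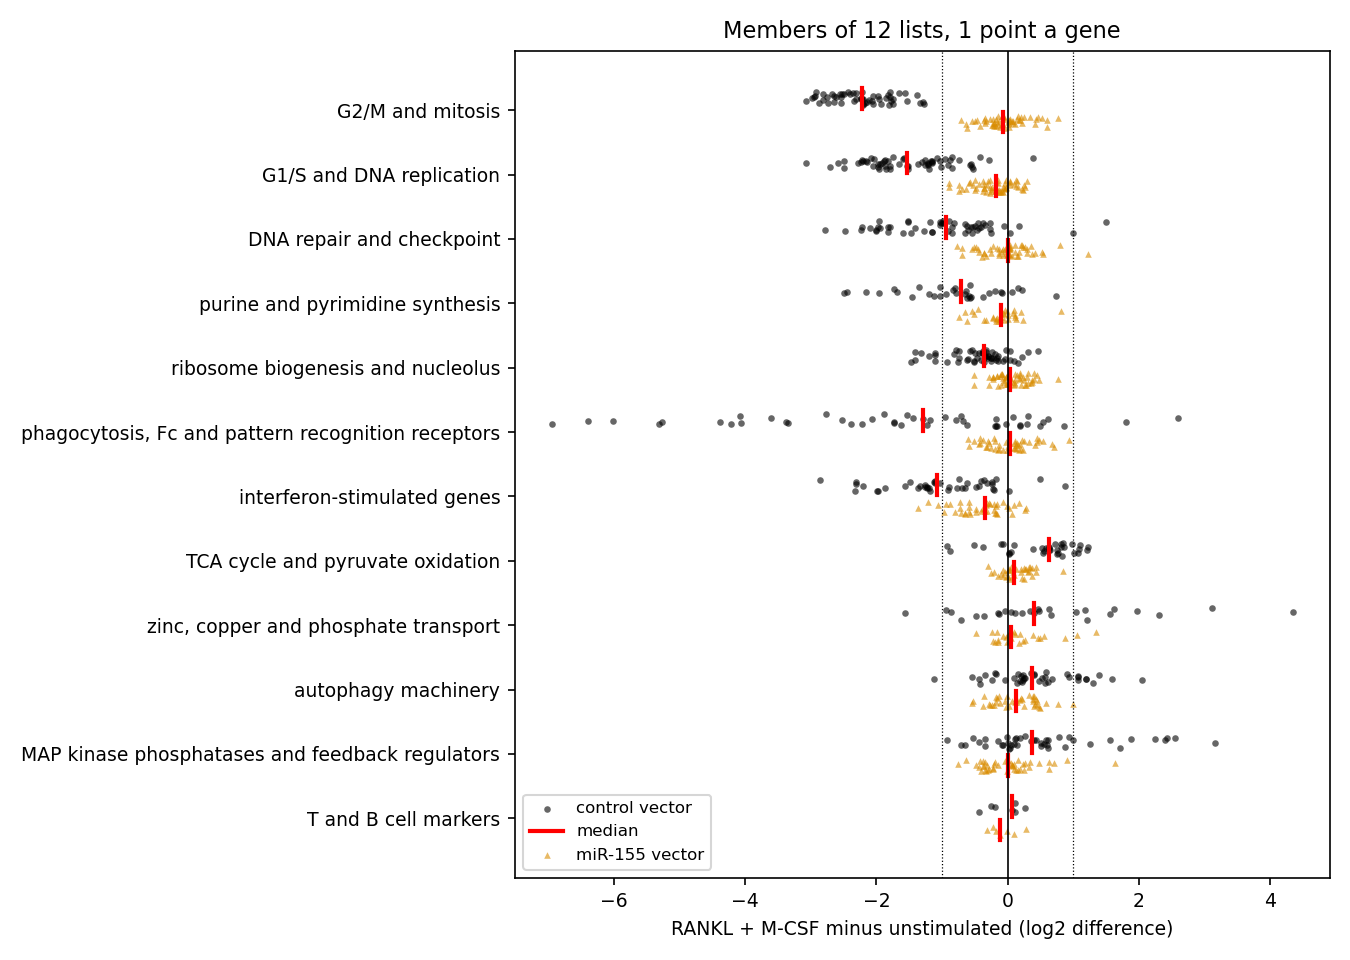
Log2 difference, RANKL + M-CSF minus unstimulated, for the members above the floor of 12 lists, 1 point a gene, in control-vector cells (black circles) and miR-155 cells (orange triangles); red bars are list medians and dotted lines mark 2-fold. The mitosis list has medians of -2.21 in the control cells and -0.06 in the miR-155 cells, and the T and B cell markers lie near 0 in both.

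Gene families by shared symbol stem give another view. Of 339 stems with at least 6 members above the floor, 7 had 50% or more of their members past 2-fold in 1 direction. All 7 Cdca genes (cell division cycle associated) were lower, as were 5 of 6 Smc genes of the chromosome-folding complexes, 7 of 10 Mcm genes, 6 of 10 Tlr genes, 3 of 6 Ms4a genes and 3 of 6 Cbx genes, whose products read histone methylation. Serpinb was the family on the higher side: 5 of 10 members were higher, and Serpinb6b (5.38), Serpinb1a (4.08) and Serpinb7 (2.79) led. Its members are similar in sequence, so their probe sets may share signal. Of the nuclear pore genes 9 of 19 Nup members were lower, Nup210 (-2.26) and Nup160 (-1.67) first. Among H2B histone genes H2bc18 (-2.14), H2bc14 (-2.10) and H2bc3 (-2.02) were lower and H2bc4 (4.42) and H2bc21 (2.26) higher, and these copies may also share signal.

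Some called genes lie side by side. Among 12872 genes above the floor put in chromosome order (GRCm38.p6), skipping genes below the floor, there were 23 runs of 3 or more neighbours past 2-fold in the same direction, 9 higher and 14 lower, covering 72 genes. The longest had 4 genes. On chromosome 14, Slc7a7 (1.15), Mrpl52 (1.70), Mmp14 (3.65) and Lrp10 (2.16) were higher together. On chromosome 4, Smpdl3b (-3.43), Rpa2 (-1.92), Themis2 (-4.46) and Ppp1r8 (-1.03) were lower together. On chromosome 9, Bcl2a1c (1.62), Crtap (1.58), Glb1 and Tmppe (1.04) were higher; Glb1 and Tmppe overlap in RefSeq's table, so their signals may not be separate. Several runs are families of related genes, such as Ms4a6c (-4.76), Ms4a6b (-4.05) and Ms4a6d (-1.54) on chromosome 19, or Tlr8 (-1.29) and Tlr7 with Prps2 (-1.69) on chromosome X. How many such runs an arbitrary order would give was not tested.

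Across response classes, CHR words were in a window of 12.3% of higher genes, 29.7% of lower genes and 15.3% of genes within 2-fold, and E2F words in 13.4%, 31.1% and 17.5%. Leaving out the members of the cell cycle and repair lists, 26.6% of 662 lower genes held a CHR word and 29.0% an E2F word. These lists do not name every gene of cell division, so such genes may remain among the 662. The CCAAT box was in 40.5% of higher, 50.3% of lower and 41.2% of other genes. The shares of the E-box CACGTG (79 of 627, 80 of 765 and 1049 of 9342 genes), the PU.1 word GAGGAAG (113, 125 and 1462) and the NFAT word GGAAAA (157, 207 and 2137) differed less between the classes. The kappaB words GGGANNNCC and GGGGNNNCC were in 50.9%, 40.1% and 45.4%. Over all promoter windows the shares were 7.15% for the E-box, 13.6% for PU.1, 23.4% for NFAT, 31.1% for kappaB and 37.4% for CCAAT. All were searched on both strands, and a stretch may match 2 words at once, as with the NFAT and ISRE words. The median GC content of the windows was 60.3% for higher, 59.3% for lower and 60.3% for other genes. Short words occur often by themselves, and these shares say nothing of binding.

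**Figure D5:**
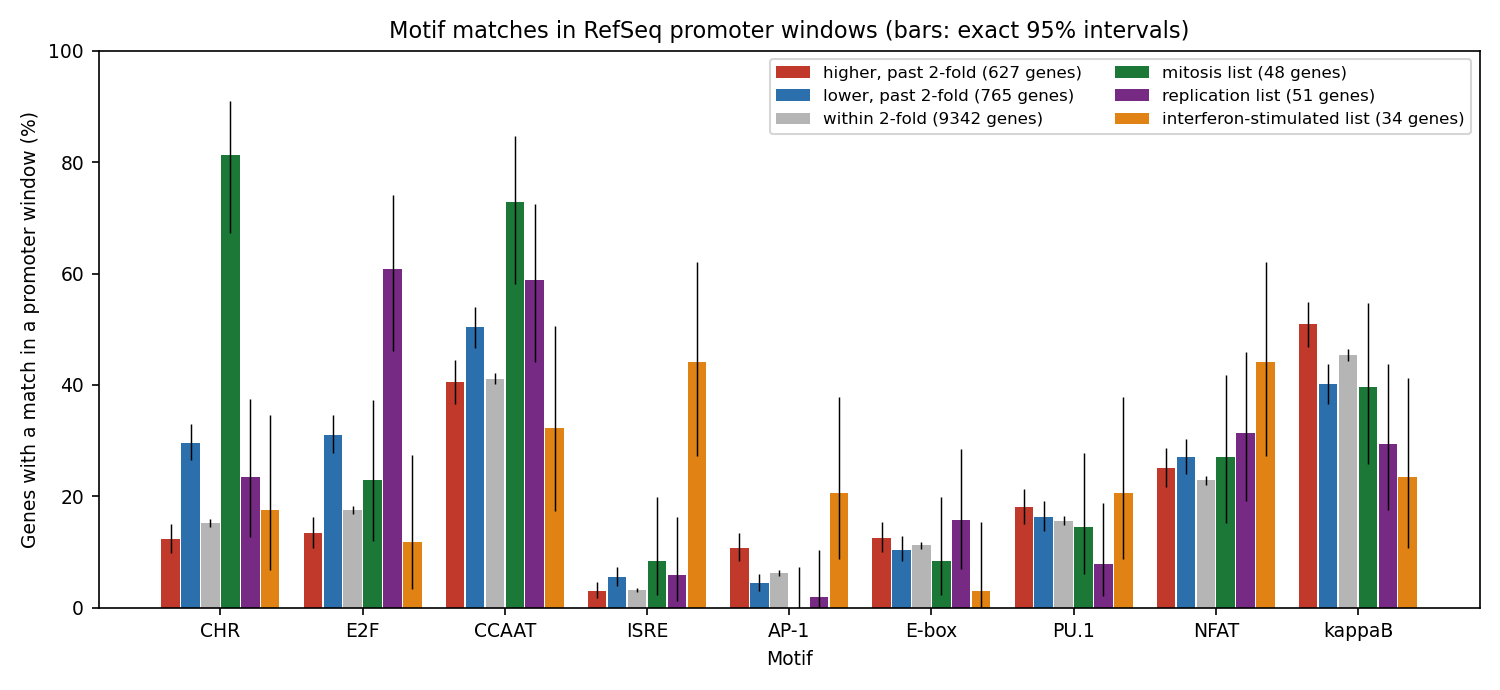
Share of genes with a match to each of 9 motifs in a RefSeq promoter window (vertical, percent) for higher, lower and other genes and for 3 lists, with exact 95% binomial intervals that cover counting error only. The tallest bar is the CHR share of the mitosis list, 81.2%, followed among the CHR, E2F and ISRE bars by E2F in the replication list, 60.8%, and ISRE in the interferon-stimulated list, 44.1%.

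Markers of other cell types gave little. Of the T and B cell markers 7 were above the floor and 6 below it, and those above differed by -0.44 to 0.27. Of the granulocyte and mast cell markers 7 were above it and 12 below, with differences of -0.32 to 0.31. Of the endothelial, erythroid and megakaryocyte markers 7 were above it, with differences of -0.35 to 0.88. No member of these 3 lists was past 2-fold. The fibroblast and osteoblast list had 1 of 8 higher, the matrix proteoglycan gene Dcn, which read 3.48 unstimulated and 5.04 stimulated, at least 1.73-fold higher, while the collagen gene Col1a1 differed by -0.09. Of 8 dendritic cell markers above the floor, Itgax read 4.36 unstimulated and 6.96 stimulated and Cd83, an activation marker, 6.39 unstimulated and 8.96 stimulated, Bst2 (-1.26) was lower, and Flt3 differed by 0.08, with 7 other markers below the floor. The part of such cells in the results was not tested.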

How the data were processed

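RNA of 4 RAW 264.7 cultures, 1 for each of 4 groups, was hybridised to Affymetrix Mouse Gene 1.0 ST arrays. Groups follow the sample descriptions. The authors deposited 1 log2 expression value for each probe set on each array. RMA and Partek were used per the submitters' processing notes. The sources used here do not give their versions or a genome build. RMA commonly makes the arrays' distributions nearly equal, so a difference in total RNA per cell would not show. Arrays give no read depth.

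The platform annotation names 21789 of 35557 probe sets with 1 symbol, 1621 with several and 12147 with none. Of those with 1, 21698 were found by gene ID in RefSeq's table (GRCm38.p6), and 0 symbols changed. The 19938 genes, 999 with more than 1 probe set, are each represented by the probe set of highest mean. Of the called genes, 78 had 2 or more probe sets above the floor. All of these probe sets had the same direction in 76 genes and were past 2-fold in 52. In 0 genes was a probe set past 2-fold the other way. Differences of log2 values were computed in Python 3.11.15 with numpy 2.4.6, pandas 2.3.3 and scipy 1.17.1, and drawn with matplotlib 3.10.9. No test was run, since each group has 1 array; the 2-fold threshold describes these arrays. The step that counts calls was tested on simulated data. RefSeq promoter windows of 300 bases were found for 10734 of the genes above the floor. No coordinates are given for probe sets. The results of 1 of the 52 lists are not reported here.

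The genes, lists, promoters and alternatives were chosen with earlier results of these data known. Named genes are the 40 highest and 40 lowest outside the osteoclast list, list members with the largest differences first, genes in runs of neighbours, and genes of opposite sign in the 2 vectors. Prnp, Nup210, Nup160, H2bc21 and the members named for staying within 2-fold, among them Cdt1, Rsad2, Ckm and Cd68, and the remark on paralogs of opposite sign were chosen after their values were seen. Alternatives were no floor, a stricter floor (the 99th percentile of the receptor values, 5.17), a floor on the control arrays only, values set to the floor, median centring, a second quantile normalization, loess, the mean of all probe sets, other motif windows and classes, and 1.5-fold runs; genes with 1 start only were added after seeing the data.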

Additional observations from a re-analysis of the deposited data

Results flagged for a closer look

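Among the lower genes of the control-vector cells, some had a difference of opposite sign in the miR-155 cells. Smc2, a condensin subunit, differed by -2.94 in the control cells and 0.60 in the miR-155 cells. The mitotic kinesin Kif20b differed by -2.82 and 0.77, and the centromere motor Cenpe by -2.52 and 0.60. Clec5a, a myeloid lectin that signals through an ITAM adaptor, differed by -2.15 and 0.63. The nucleosome-binding protein Hmgn5 differed by -1.52 and 1.74, the RecQ helicase Wrn by -1.16 and 0.80, and the prostaglandin D synthase Hpgds by -1.13 and 1.21. In the other direction, the MAP kinase phosphatase Dusp1 differed by 2.25 and -0.76. Over all genes, 21 were past 2-fold in the control cells and past 1.5-fold the other way in the miR-155 cells; these 8 are members of a gene list or past 2-fold in both. Each rests on 1 array per state, and the difference between the vectors was not tested.

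Probe sets that the annotation does not name with a single symbol also carried signal. Of 7370 above the floor, 311 were higher past 2-fold on the stimulated control array (4.22%) and 736 were lower (9.99%). What they measure was not tested.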

How the results depend on the processing

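No paired analysis was possible because each group has 1 array and no replicate numbers, and for the same reason no replicate could be left out. The counts of higher and lower genes were 779 and 940 without a floor, 767 and 927 with the stricter floor, 777 and 939 with the floor on the control arrays, 765 and 921 with values set to the floor, 996 and 746 after median centring, 852 and 831 after a second quantile normalization, 827 and 856 after loess, and 768 and 928 with the mean of all probe sets. Median centring kept 1523 of the 1716 called genes and lost 193. Of the list medians under these 8 alternatives, 405 moved by less than 0.24, 1 SD of the receptor differences, and 10 by more. The median over dendritic cell markers was 0.20 without a floor. With the stricter floor, which leaves fewer genes, the medians were 3.45 (osteoclast markers), 0.48 (coupling factors), -0.45 (G protein-coupled receptors), -0.45 (lineage factors), -0.94 (siglecs and related receptors), -1.62 (phagocytosis), 0.61 (adhesion), -0.19 (T and B cell markers) and 0.88 (endothelial, erythroid and megakaryocyte markers). The value of 0.88 equals the largest difference in its list, so it is that of 1 gene. Medians close to 0, such as those of the TGF-beta, Wnt and semaphorin lists, took either sign under other scalings. Of the counts of called members per list, 809 stayed within 1.5 times and 23 did not; of the differences of the 80 leading genes, 627 moved little and 13, all of genes with a value below the floor, moved by more when values were set to the floor. Among the promoter shares, classes at 4-fold gave 40.9% (CHR, lower), 8.06% (ISRE, lower), 18.6% (AP-1, higher) and 9.32% (CHR, higher). The 250 bases before the start alone gave 23.01% (CHR, lower) and 23.8% (E2F, lower). Genes with 1 start only, an alternative chosen after seeing the data, gave 6.89% (AP-1, higher) and 9.81% (CHR, higher). At 1.5-fold there were 105 runs of neighbours in place of 23. The causes of these shifts were not tested beyond the smaller numbers of genes and bases.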
